A study of Homo sapiens with 6 samples.

Results

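The MYC, MAX and MXD network is a small family of transcription factors that share MAX as a binding partner. Its 10 genes, *MYC*, *MYCL*, *MYCN*, *MAX*, *MXD1*, *MXD3*, *MXD4*, *MXI1*, *MNT* and *MGA*, were found by symbol among the 28395 genes of the count table, and all 10 had a row. The measurements came from RNA sequencing of H146 (NCI-H146) cells, an established human small-cell lung cancer (SCLC) line with a genotype labelled WT. One group of 3 libraries came from cells transfected with a negative control siRNA and the other group of 3 from cells transfected with an siRNA against *KIFC1*, a kinesin motor gene, and both were collected on day 2. The groups are called control siRNA and siKIFC1. Every library came from the same line and each arm holds a single siRNA condition, so a change common to other SCLC lines or other *KIFC1* siRNAs was not measured. The labels call the 3 libraries of a group biological replicates without naming separate cultures, so the p-values may measure only the spread between these samples.

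MYC proteins pair with MAX, bind DNA at E-box sequences and raise transcription of genes for ribosomes, metabolism and the cell cycle. The MXD proteins, MNT and MGA also pair with MAX and bind E-boxes, but they bring corepressors, so they oppose MYC at shared targets. In SCLC, *MYC*, *MYCL* or *MYCN* can be amplified, usually in different tumors, and *MGA* and *MAX* can be lost by mutation.

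Sequences are shown for the network genes that hold words relevant to the comparisons below. The word GAGATCT was picked out earlier, from the differences between these very libraries, as a 3′ UTR word of genes that were lower with siKIFC1, so its presence in such a gene is not independent evidence. It occurs in 8.16% of 18465 GENCODE 3′ UTRs of at least 50 bases. Of the 10 network genes, *MXD1* held 2 copies in a 3′ UTR of 4664 bases, *MGA* held 1 copy in 2663 bases, and the other 8 held no copy. The 3 sites are printed with the word in capitals, on the plus strand of GRCh38, at chr2:69939092-69939120, chr2:69941351-69941379 and chr15:41767930-41767958.
*MXD1* site 1: cagagataaatGAGATCTccatttcccac
*MXD1* site 2: tttgctaagcaGAGATCTtgaattcttca
*MGA* site: ttaattattttGAGATCTtaaaaaaatag
GCAACC was picked out in the same way, as a word of genes that were higher, and occurs in 21.3% of those 3′ UTRs. Among the network genes it was found in 1 copy each in *MYC* and *MGA*, the latter at chr15:41768295-41768322.
*MGA* GCAACC site: attttttatctGCAACCatggatccaat

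The E-box CACGTG, the site that MYC and MXD dimers with MAX prefer and a palindrome that reads alike on both strands, was searched in RefSeq promoter windows of GRCh38.p14, from 250 bases before to 50 bases after each start. No window was found for *MYC*, so its promoter was not searched, and the other 9 network genes had 14 windows in all. The E-box occurred in 2 of them, 1 of *MXD4* and 1 of *MNT*, and in 2548 of 35116 windows (7.26%) over all genes. Both stretches are printed on the minus strand, that of their gene, with the E-box in capitals, at chr4:2262330-2262359 and chr17:2401236-2401265. These matches describe the letters of the windows, not binding.
*MXD4* promoter: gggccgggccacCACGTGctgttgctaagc
*MNT* promoter: ccctgcccgggcCACGTGtgcgcgcgccgg

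The libraries held from 15392374 to 17754458 counts, with 19437 to 20472 genes detected in each and 8.34% to 13.1% of the counts on mitochondrial genes. Markers of neuroendocrine SCLC were present, with 10009 to 12809 counts for *INSM1*, whereas *NEUROD1*, *POU2F3* and *YAP1*, which each define a class of SCLC, had 0 to 7 counts per library. Counts for *PTPRC*, *COL1A1* and *PECAM1*, markers of immune, fibroblast and endothelial cells, were at most 59 in any library. For the targeted gene *KIFC1*, the control siRNA libraries held 14, 4 and 14 counts and the siKIFC1 libraries 1, 1 and 0, at least 3.24-fold lower when siKIFC1 libraries were set to a floor of 3 counts each. All of the 32-base words in the exons of *KIFC1* also occur on alternate sequences of GRCh38, and how reads with several matches were counted is not given in the sources used here. For the network genes such words made up at most 0.253%. Replicate 3 of both groups held relatively more reads on long transcripts: across 11616 genes the log2 ratio of replicate 3 to replicates 1 and 2 rose with transcript length (Spearman's rho 0.571 with control siRNA and 0.590 with siKIFC1, genes not being independent). Without siKIFC1 replicate 3 the genes called went from 49 higher and 56 lower to 194 higher and 274 lower.

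*MYC* was by far the most abundant of the 3 genes that encode MYC proteins. Levels are compared between genes as reads scaled to library size (CPM) per kilobase of exon, with all annotated exons of a gene merged. *MYC* (NCBI gene ID 4609, chromosome 8, 127735434 to 127742951) stood at 37.9, 40.6 and 38.1 CPM per kilobase with control siRNA and at 42.9, 47.0 and 40.9 with siKIFC1. *MYCL* (ID 4610, chromosome 1, 39895428 to 39901917), the form first found in lung cancer, stood at 0.883 ± 0.213 (SD, n = 6) and ranged from 0.630 to 1.15. *MYCN* (ID 4613, chromosome 2, 15940550 to 15947004), first known from neuroblastoma, stood at 0.599 ± 0.211 (SD, n = 6) and ranged from 0.348 to 0.979. The lowest *MYC* value was thus more than an order of magnitude above the highest value of either relative. *MYC* lay above 93.8% of 14320 tested genes that had a length, *MYCL* above 18.1% and *MYCN* above 13.8%.

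As a share of the summed levels of the 3 MYC genes, *MYC* made up 96.7% ± 0.545 (SD, n = 3) with control siRNA and 96.4% ± 0.353 (SD, n = 3) with siKIFC1. The ranges of the groups overlapped, and a two-sided exact permutation test gave p = 0.4, where the smallest p that 3 against 3 libraries allow is 0.1. *MYCL* took 2.07% of the sum with control siRNA and 2.08% with siKIFC1, and *MYCN* took 1.19% and 1.57%. The *MYC* share did not rest on the gene length used, being 97.3% over the 6 libraries with the canonical transcript and 97.7% in raw counts. Counts were low for both relatives, with 50 to 95 per library for *MYCL* and 16 to 41 for *MYCN*. Annotated antisense genes share 3.18% of the merged exon bases of *MYC* (*CASC11*), 3.56% of *MYCN* (*MYCNOS*) and 4.55% of *MYCL* (*MYCL-AS1*). *CASC11* had 1 to 7 counts per library and *MYCNOS* 0 to 3, while *MYCL-AS1* was not analysed here. The strand setting of the counting was not given in the sources used here, so sense and antisense reads cannot be told apart.

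After *MYC*, the highest level in the network belonged to an antagonist, *MXD4*. It encodes a MAX partner that recruits SIN3 corepressors, and its level was 16.5 ± 1.84 CPM per kilobase (SD, n = 6), so that *MYC* was 2.51-fold higher. *MNT*, which encodes the broadly expressed MAX-binding repressor, stood at 6.46 ± 0.549, and *MAX*, the shared partner, at 6.33 ± 0.636. *MXI1* followed at 4.74 ± 0.422, *MXD1* at 3.73 ± 1.01, *MXD3* at 3.59 ± 0.637 and *MGA*, the largest protein of the network, which also carries a T-box domain, at 3.14 ± 0.936 (all SD, n = 6). *MYC* RNA was therefore 6.28 ± 0.381 times *MAX* RNA with control siRNA and 6.80 ± 0.491 times with siKIFC1 (SD, n = 3), with overlapping ranges. With canonical transcript lengths, chosen after the data were seen, the ratios were 3.31 and 3.59.

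With merged exons, some neighbours in this order were not separable. In a two-sided exact sign-flip permutation test over the 6 libraries, for which the smallest possible p is 0.03125, 5 of the 9 neighbouring pairs reached that p and held in 6 of 6 libraries: *MYC* over *MXD4*, *MXD4* over *MNT* (2.55-fold), *MAX* over *MXI1* (1.33-fold), *MGA* over *MYCL* (3.53-fold) and *MYCL* over *MYCN* (1.51-fold). Adjusted over the 9 pairs, the exact test gave 0.05625 for these 5, so none passed the threshold of 0.05, and the ranges of *MYCL* and *MYCN* overlapped. *MNT* and *MAX*, *MXI1* and *MXD1*, *MXD1* and *MXD3*, and *MXD3* and *MGA* differed by less than their spread over the 6 libraries, with exact p from 0.1875 to 0.875. These comparisons pool both groups, and for *MXD1* the spread is mainly the difference between the groups. With merged exons it stood at 4.62 ± 0.381 with control siRNA, rank 5, and at 2.84 ± 0.114 with siKIFC1, rank 8. On the same scale *MXI1* stood at 4.47 ± 0.458 and 5.01 ± 0.144 (SD, n = 3), so it overlapped *MXD1* with control siRNA and lay above it in every siKIFC1 library. The rank of *MXD1* in the control siRNA group depended on the length used. Over the 6 libraries *MXD1* had rank 6 with merged exons and rank 8 with the longest or the canonical transcript. The middle of the order depended on the length used. With the canonical transcript, *MAX* stood at 19.7 CPM per kilobase and rank 3, and *MXD3* at 16.0 and rank 4. The pairs not separable with merged exons then kept the same order in every library. *MXI1* lay above *MXD1* (1.94-fold) and *MXD3* above *MGA* (3.14-fold) in 6 of 6 libraries. *MNT* lay above *MAX* (0.580-fold) and *MXD1* above *MXD3* (0.263-fold) in 0 of 6. *MXD3* shares 43.7% of its merged exon bases with its neighbours *PRELID1* and *RAB24*, and *MAX* shares 16.1% with other genes, *FNTB* among them. *MYC*, *MXD4*, *MYCL* and *MYCN* kept ranks 1, 2, 9 and 10 under each length.

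**Figure D1:**
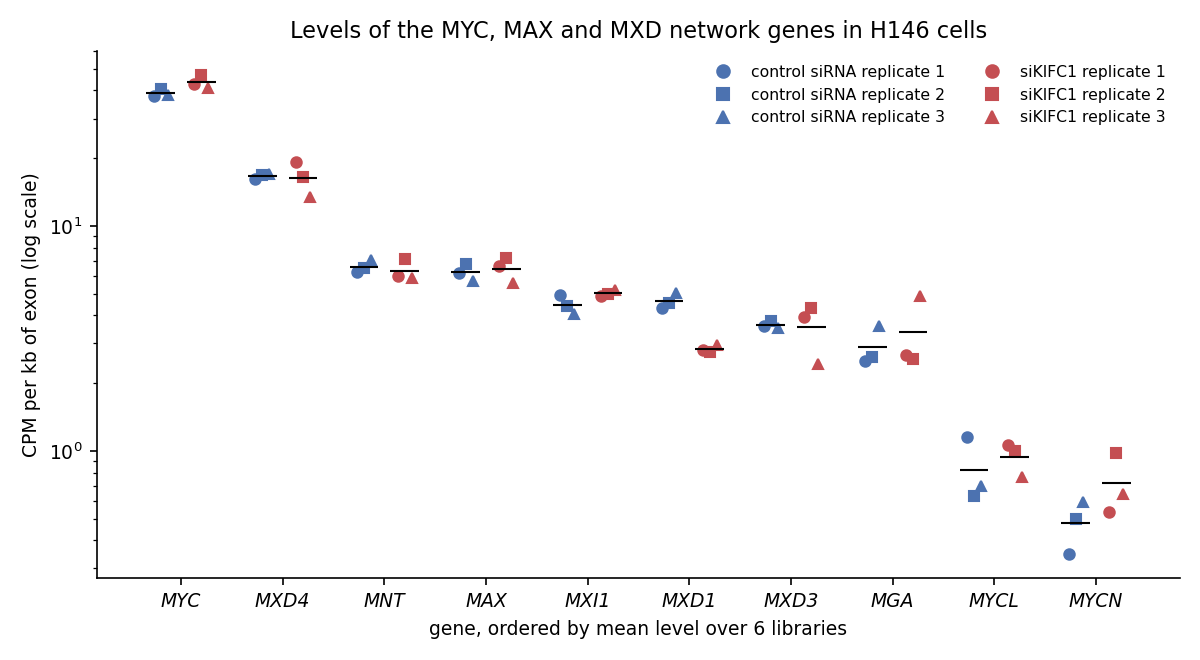
Level of each network gene in each library, in CPM per kilobase of merged exon on a log scale, with genes ordered by their mean over 6 libraries. Points are libraries (blue control siRNA, red siKIFC1, shapes for replicate numbers) and bars are group means. *MYC* stands apart at the top, with 37.9 as its lowest value, *MYCL* and *MYCN* lie at the bottom, and only *MXD1* has control siRNA points wholly above its siKIFC1 points.

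Between the groups, *MXD1* was the only network gene called. Counts were compared with edgeR's quasi-likelihood test over 14776 genes, and a gene was called at a Benjamini-Hochberg adjusted p under 0.05. Of the 10 network genes, 10 were tested and 1 was called, beside 0.711% of all genes tested. The called gene was lower, as were 0.379% of all genes, whereas 0.332% were higher. At an unadjusted p under 0.05 it was again 1 of 10, beside 9.24% of all genes (4.71% higher and 4.53% lower). Fold changes were positive for 6 members and negative for 4, with a median log2 fold change of 0.11, against 0.010 over all genes tested. Members whose groups did not overlap numbered 2, *MXD1* (lower) and *MYC* (higher), beside 15.5% of all genes (7.97% higher and 7.51% lower). When replicate number was added as a block, edgeR called 854 genes (5.78%, of which 2.72% higher and 3.06% lower), and of the network still only *MXD1*.

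*MXD1* (ID 4084, chromosome 2, 69915109 to 69942945) encodes a MAX partner, also known as MAD, that rises as many cell types leave the cell cycle and differentiate. The control siRNA libraries held 456, 459 and 589 counts of it and the siKIFC1 libraries 280, 265 and 308, in CPM 27.3, 28.7 and 32.04 against 17.9, 17.4 and 18.8. Every siKIFC1 library lay below every control siRNA library, and the siKIFC1 values lay close together. Means were 29.4 ± 2.42 CPM for control siRNA and 18.04 ± 0.723 CPM for siKIFC1 (SD, n = 3). The log2 fold change was -0.70 (SE 0.12, 95% interval -0.97 to -0.44) with an edgeR adjusted p of 0.0239. This amounted to 0.615 of the control level, and in the pairs of like replicate number the log2 ratios were -0.61, -0.72 and -0.77. In bulk RNA, fewer cells of a type and less RNA per cell cannot be told apart.

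The *MXD1* call held under every alternative with all libraries and was lost in 5 of the 6 fits that left out a library. With the replicate block the edgeR adjusted p was 7.37e-05, and over all alternatives it ran from 7.37e-05 to 0.180. The fold change stayed between -0.75 and -0.63 on the log2 scale when single libraries were left out. The edgeR adjusted p was then 0.0869, 0.136 and 0.180 without control siRNA replicates 1, 2 and 3, 0.0914 and 0.0575 without siKIFC1 replicates 1 and 2, and 0.00385 without siKIFC1 replicate 3. *MXD1* is also the network gene with the most copies of GAGATCT in its 3′ UTR, the sites printed above, and their part in the difference was not tested.

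*MYC* itself was counted 3862, 3967 and 4284 times in the control siRNA libraries and 4109, 4365 and 4083 times in the siKIFC1 libraries. In CPM it was 231.6, 248.1 and 233.0 against 262.1, 287.1 and 249.8, so each siKIFC1 library lay above each control siRNA library, the closest values being 249.8 and 248.1. The log2 fold change was 0.16 (SE 0.10, 95% interval -0.053 to 0.38), and the edgeR adjusted p was 0.702. This interval runs from 0.964 to 1.30 times the control level. *MYCL* had 95, 50 and 64 counts against 83, 75 and 62, with overlapping groups and a log2 fold change of 0.19 (95% interval -0.37 to 0.75, edgeR adjusted p 0.902). *MYCN* had 16, 22 and 30 counts against 23, 41 and 29, also overlapping, with a log2 fold change of 0.57 (95% interval -0.14 to 1.28, edgeR adjusted p 0.677). The *MYCN* interval reaches 2.43 times the control level. Leaving out single libraries moved the log2 fold change of *MYCL* between 0.028 and 0.50 and that of *MYCN* between 0.28 and 0.76.

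**Figure D2:**
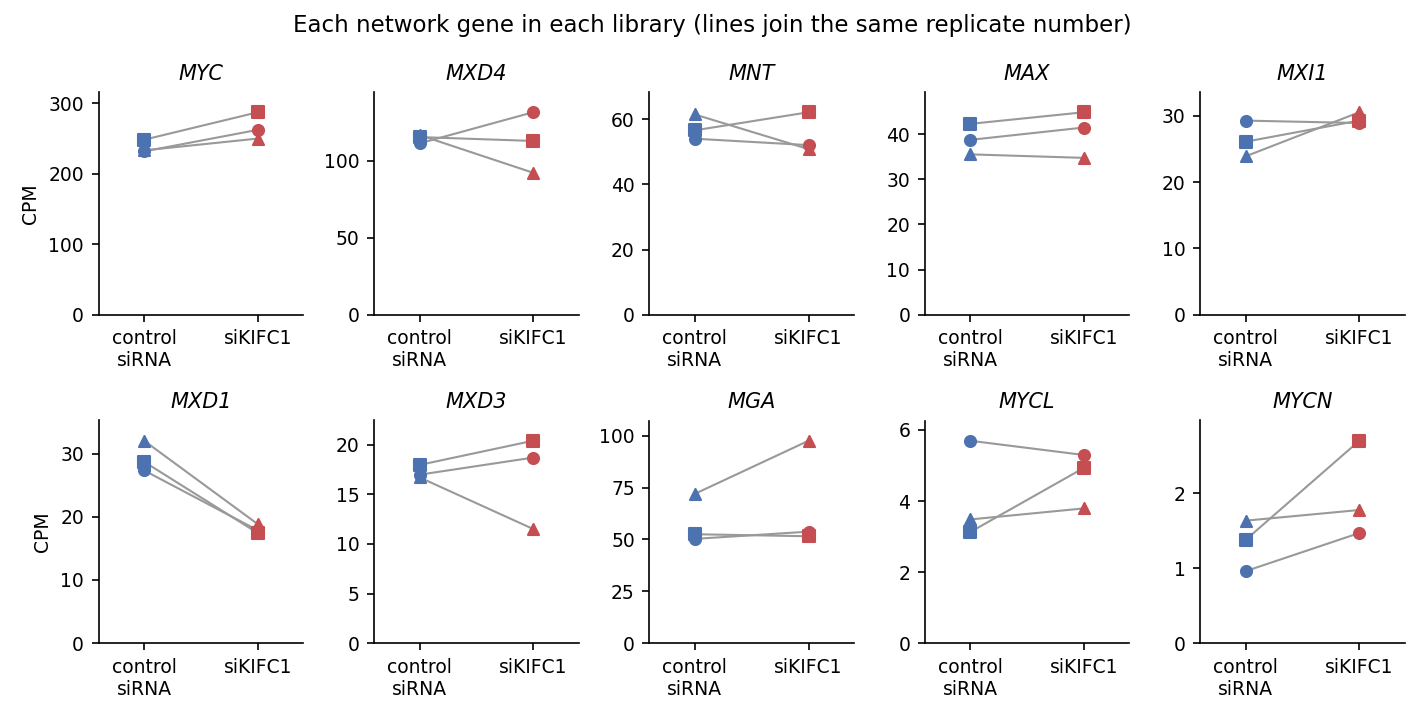
CPM of each network gene in each library on a linear axis from 0, with grey lines joining libraries of the same replicate number (blue control siRNA, red siKIFC1, shapes as in the plot of levels). The 3 lines of *MXD1* fall, from 27.3 to 32.04 CPM down to 17.4 to 18.8, the siKIFC1 points of *MYC* lie just above its control siRNA points, and *MGA* is high in replicate 3 of both groups.

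*MAX* (ID 4149, chromosome 14, 65006101 to 65102695), the obligate partner, had 646, 676 and 653 counts against 650, 682 and 568. Its groups overlapped and its log2 fold change was 0.055 (95% interval -0.22 to 0.33, edgeR adjusted p 0.950). The other antagonists were not called either, each with overlapping groups. *MXI1* (ID 4601, chromosome 10, 110207605 to 110287365) went from 26.4 ± 2.70 to 29.6 ± 0.852 CPM, *MXD4* (ID 10608, chromosome 4, 2247432 to 2262109) from 114.6 ± 2.84 to 112.3 ± 19.7, and *MXD3* (ID 83463, chromosome 5, 177305499 to 177312752), a form linked to S phase, from 17.2 ± 0.658 to 16.9 ± 4.72 (SD, n = 3). The wide siKIFC1 spread of *MXD4* and *MXD3* went with replicate 3, in which both were lowest, with 92.3 CPM of *MXD4* and 11.5 CPM of *MXD3*. *MNT* (ID 4335, chromosome 17, 2384073 to 2401060) went from 57.4 to 55.0 CPM, with a log2 fold change of -0.061.

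*MGA* (ID 23269, chromosome 15, 41621224 to 41769940) differed between replicates of a group. Its CPM was 50.3, 52.5 and 72.03 with control siRNA and 53.8, 51.6 and 97.6 with siKIFC1, so replicate 3 was highest in both groups. The log2 fold change was 0.21 (95% interval -0.29 to 0.72, edgeR adjusted p 0.878), and it was -0.15 without siKIFC1 replicate 3. With a canonical transcript of 12193 bases *MGA* is among the long transcripts that replicate 3 held in excess. In replicate 3 relative to replicates 1 and 2, the 547 genes over 10000 bases had a median log2 ratio of 0.28 with control siRNA and 0.44 with siKIFC1, and *MGA* had 0.49 and 0.89.

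The balance of RNA between activators and antagonists is given as a description, since *MXD1* enters it. Summed per kilobase, the 3 MYC genes stood at 1.03 ± 0.0508 times the summed MXD genes, *MNT* and *MGA* with control siRNA and at 1.21 ± 0.0783 times with siKIFC1 (SD, n = 3). With canonical transcript lengths the same ratios were 0.873 and 1.01, so which side exceeded the other depended on the length used. The *MYC* to *MXD1* ratio was 8.80, 8.99 and 7.56 with control siRNA and 15.3, 17.1 and 13.8 with siKIFC1. *MXD1* was a minor part of the antagonist RNA, 11.9% ± 0.586 of the sum with control siRNA and 7.62% ± 0.803 with siKIFC1 (SD, n = 3), or 7.04% and 4.48% with canonical transcript lengths, and *MXD4* made up the most.

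MLX is a MAX-like protein that pairs with the glucose sensors MondoA (*MLXIP*) and ChREBP (*MLXIPL*) and also with MXD1, MXD4 and MNT. Its counts were 694, 585 and 639 in the control siRNA libraries and 811, 835 and 860 in the siKIFC1 libraries. Every siKIFC1 library lay above every control siRNA library, with means of 37.7 ± 3.55 and 53.1 ± 1.64 CPM (SD, n = 3). The log2 fold change was 0.50 (SE 0.11, 95% interval 0.25 to 0.74) with an edgeR adjusted p of 0.0783, which misses the threshold, and with the replicate block the edgeR adjusted p was 0.00144. Without the filter on low counts the edgeR adjusted p was 0.0335, and DESeq2's Wald test gave an adjusted p of 0.0115. In edgeR it was 0.0190 without siKIFC1 replicate 3 and 0.147 to 0.450 without any other single library. *MLXIP* had a log2 fold change of -0.014 and *MLXIPL* of 0.15, both with overlapping groups. Of the MondoA targets, *ARRDC4* had a log2 fold change of 0.37 (edgeR adjusted p 0.253, and 0.0214 with the block) and *TXNIP*, the arrestin-like brake on glucose uptake, of 0.18 (edgeR adjusted p 0.735).

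**Figure D3:**
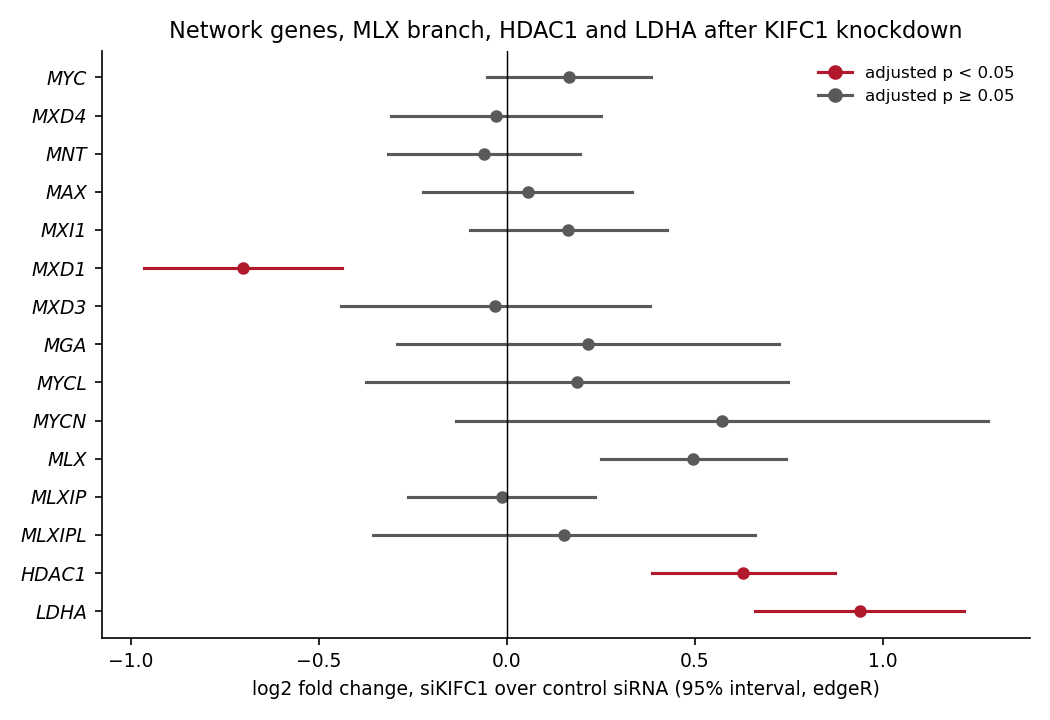
Log2 fold change, siKIFC1 over control siRNA, with 95% intervals from edgeR, for the network genes, the MLX branch and the called genes *HDAC1* and *LDHA* (red, adjusted p under 0.05). The interval of *MXD1* (-0.97 to -0.44) lies wholly below 0, those of the other 9 network genes include 0, and that of *MLX* (0.25 to 0.74) lies above 0 although its adjusted p misses the threshold.

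Among the corepressors that MXD proteins and MNT bring to DNA, the histone deacetylase gene *HDAC1* was higher. The control siRNA libraries held 1727, 1422 and 1672 counts and the siKIFC1 libraries 2512, 2175 and 2206, and the groups did not overlap. Mean CPM rose from 94.5 ± 7.92 to 146.1 ± 12.9 (SD, n = 3). The log2 fold change was 0.63 (SE 0.11) with an edgeR adjusted p of 0.0274. Leaving out control siRNA replicates 1, 2 and 3 gave edgeR adjusted p of 0.0808, 0.198 and 0.197, leaving out siKIFC1 replicates 1 and 2 gave 0.128 and 0.0538, and leaving out siKIFC1 replicate 3 gave 0.00160. *HDAC1* holds 1 copy of GCAACC in its 3′ UTR, as does *MLX*, and the part of these copies was not tested. Copies of both words lie in genes with fold changes of either sign. Examples are *POLR1A* (-0.28, 4 of GCAACC), *MTHFD2* (0.34, 2 of GCAACC), *TRIT1* (0.096, 2 of GAGATCT) and *TFRC* (-0.33, 1 of GAGATCT). These are some of the named genes with a copy and are given as a description, since the words came from these same libraries.

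No other gene of the SIN3 and NCOR list was called. Of its 16 genes, 16 were tested, 1 was called higher (*HDAC1*) and 0 lower, beside 0.332% and 0.379% of all genes. At an unadjusted p under 0.05 these were 1 and 2, beside 4.71% and 4.53%, with a median log2 fold change of 0.036. *SIN3A*, the scaffold that MXD proteins bind, had -0.066 and its relative *SIN3B* had -0.24 (edgeR adjusted p 0.515). *SUDS3*, a SIN3 subunit, had -0.29 with non-overlapping groups and an edgeR adjusted p of 0.319, and 0.0315 with the block. *SAP30*, another SIN3 subunit, had 0.14, *HDAC2* had 0.059 and *NCOR1*, for a nuclear receptor corepressor, had -0.11.

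MGA is a core part of a Polycomb complex, PRC1.6, that silences germ-line genes in somatic cells. Of the 14 complex genes listed, 13 were tested, 10 with positive and 3 with negative fold changes (median 0.086). The 1 called was *HDAC1*, higher and already counted in the SIN3 and NCOR list, beside 0.332% of all genes called higher. At an unadjusted p under 0.05 in edgeR 1 was higher and 0 lower, beside 4.71% and 4.53%. *PCGF6*, *L3MBTL2* and *E2F6*, which mark the complex, had log2 fold changes of 0.055, -0.029 and -0.083. *RYBP*, a PRC1 subunit, had the next highest value after *HDAC1* (0.24) and *WDR5* the lowest (-0.12). *RING1* was not tested, since it had 0 to 2 counts and all of its 32-base words occur on alternate sequences. Of 18 germ-line genes, 11 passed the filter on low counts and 0 were called by edgeR, also with the block, beside 0.711% and 5.78% of all genes. At an unadjusted p under 0.05 *MEIOB* was higher (0.22) and *SMC1B* lower (-0.55), beside 4.71% and 4.53% of all genes. *STAG3* and *TEX101* had -0.32 and -0.24 and *MEIOC* had 0.098. The other 7, among them *DAZL* and *DDX4*, had 0 to 5 counts in every library.

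Genes for proteins that work with MYC were not called. Of 18 listed partners, 17 were tested, 4 with positive and 13 with negative fold changes (median -0.056), and edgeR called 0, beside 0.711% of all genes. With the block and at an unadjusted p under 0.05 it also called 0, beside 5.78% and 9.24%. *TRRAP*, a scaffold of histone acetyltransferase complexes, had the lowest log2 fold change (-0.21) and *BPTF*, of a chromatin remodeler, the next (-0.18), while *ZBTB17*, which encodes MIZ1, through which MYC represses, had the highest (0.14) and *ACTL6A* the next (0.088). Without siKIFC1 replicate 3, *BPTF* was called lower at -0.46 (edgeR adjusted p 0.0352). *SMARCB1* was not tested, with 0 to 2 counts and all of its words on alternate sequences. Of 18 genes for the turnover of MYC protein, 18 were tested and 0 were called by edgeR, also with the block, beside 0.711% and 5.78% of all genes. At an unadjusted p under 0.05 in edgeR 1 was lower (*BTRC*, a ubiquitin ligase subunit, -0.30), beside 4.53% of all genes. Without siKIFC1 replicate 3, *BTRC* was called lower at -0.40 and *SENP1*, for a SUMO protease, at -0.37 (edgeR adjusted p 0.0404 and 0.0439). *FBXW7*, the ubiquitin ligase subunit that marks MYC for destruction, had 0.11 and *AURKA*, known to stabilise MYCN, had 0.12. *PPP2R5A*, a phosphatase subunit, and *STUB1*, a ubiquitin ligase gene, had the highest values, each 0.15.

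Classical MYC targets were looked at in 4 lists, of which only the metabolic list held a called gene. Of 37 genes for ribosome biogenesis, 37 were tested, 25 with positive and 12 with negative fold changes (median 0.050). At an adjusted or an unadjusted p under 0.05 in edgeR 0 were called, beside 0.711% and 9.24% of all genes. *NCL*, *NPM1* and *FBL*, which encode abundant nucleolar proteins, had log2 fold changes of -0.012, 0.050 and 0.048. *NOP16* and *NOP56*, for ribosome assembly factors, had the highest values, 0.26 and 0.18. *POLR1A*, for the large subunit of RNA polymerase I, had the lowest (-0.28), followed by *NOC4L* (-0.16), and was called lower with the block (edgeR adjusted p 0.0486). Of 17 translation and chaperone genes, 16 were tested and 0 were called by edgeR at an adjusted or an unadjusted p under 0.05, also with the block (median 0.039). The shares of all genes were 0.711% and 9.24%, and 5.78% with the block. The log2 fold changes of this list had a narrow range, from -0.16 for *EIF4G1*, the scaffold of the cap-binding complex, to 0.21 for *AIMP2*, of the tRNA synthetase complex, with *EIF5A* at -0.077 and *XPOT* at 0.19. *EIF4A1*, which encodes a translation factor that dividing cells use, was listed at 0 in every library. Unlike *RING1* and *SMARCB1*, it had 0% of its 32-base words on alternate sequences. The reason for its 0 counts was not tested.

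The 29 metabolic targets included the called gene, *LDHA*, which encodes the lactate dehydrogenase subunit of glycolysis. The control siRNA libraries held 6455, 5078 and 4987 counts of it and the siKIFC1 libraries 10204, 9247 and 9974, so the groups lay well apart. Mean CPM rose from 325 ± 58.3 to 623 ± 24.2 (SD, n = 3). The log2 fold change was 0.94 (SE 0.13) with an edgeR adjusted p of 0.00708, and it passed under every alternative (highest adjusted p 0.0402). Its 3′ UTR holds 2 copies of GCAACC and 1 of GAGATCT, and their part was not tested. All 29 genes were tested, 18 with positive and 11 with negative fold changes and a median of 0.028. *LDHA* was the 1 gene called higher and 0 were called lower, beside 0.332% and 0.379% of all genes. At an unadjusted p under 0.05 in edgeR 4 were higher and 2 lower, beside 4.71% and 4.53%. *ODC1* and *CAD*, textbook MYC targets of polyamine and pyrimidine synthesis, had log2 fold changes of 0.13 and -0.037. With the block the edgeR calls in this list were 3 higher and 2 lower, beside 2.72% and 3.06% of all genes, *LDHA*, *SLC7A5* (0.45, block adjusted p 0.00048), *MTHFD2* (0.34, 0.00744), *HK2* (-0.30, 0.0203) and *TFRC* (-0.33, 0.00424). Without siKIFC1 replicate 3, edgeR also called *SLC7A5*, for an amino acid transporter subunit, and *TFRC*, the transferrin receptor gene (adjusted p 0.0154 and 0.0489). *SLC7A5* was also called without the filter on low counts (edgeR adjusted p 0.0488) and by DESeq2 (0.0248).

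The 16 cell cycle targets were all tested and 0 were called, beside 0.711% of all genes, 6 having positive and 10 negative fold changes (median -0.017). At an unadjusted p under 0.05 in edgeR 1 was higher and 2 lower, beside 4.71% and 4.53% of all genes. *CCND2*, a D-type cyclin gene, had 3, 11 and 3 counts against 15, 27 and 12, a log2 fold change of 1.75 with an edgeR adjusted p of 0.258, 0.0117 with the block and 0.0467 without the filter on low counts. *CDK4* had -0.043 and *E2F1* had -0.29, the latter with an edgeR adjusted p of 0.697, and 0.0402 with the block. *E2F2* and *E2F3*, the 2 that were lower at an unadjusted p under 0.05 in edgeR, had -0.24 and -0.27. *ID2* and *CKS2* had 0.16 and 0.15. Of 9 genes that MYC is known to repress, 6 were tested and 0 called by edgeR, also with the block, beside 0.711% and 5.78% of all genes. Among these, the cell cycle inhibitor gene *CDKN1A* had -0.25 (edgeR adjusted p 0.528) and *NDRG1* -0.10, while *GADD45A* had 0.23 and *CDKN1B* had 0.066.

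The transcripts that lie beside the MYC genes, which often share an amplified segment with them, had log2 fold changes of 0.17 for *PVT1* beside *MYC*, 0.084 and -0.038 for *DDX1* and *NBAS* beside *MYCN*, and 0.096 and -0.0071 for *TRIT1* and *RLF* beside *MYCL*. None of these 5 was called by edgeR at an adjusted or an unadjusted p under 0.05, beside 0.711% and 9.24% of all genes. The genes whose CPM over the 6 libraries was most like that of *MYC*, among 6690 well-expressed genes, were *DNASE2* (Pearson's r 0.994), *PCK2* (0.990), *FLCN* (0.990), *PTDSS1* (0.988) and *SRF* (0.984). These values share libraries and depth and are given as a description.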

How the data were processed

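RNA was sequenced from H146 cells in 3 control siRNA and 3 siKIFC1 libraries. Per the labels, the authors used HISAT2 2.2.1, featureCounts 2.0.8, R 4.4.2 and DESeq2 1.46.0 with GRCh38, and deposited raw counts per NCBI gene ID. Annotation, strand and multi-mapping settings are not given in the sources used here. Of 28395 IDs, 27745 matched a symbol, and the other 650 held 0.0618% of counts.

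Counts were filtered (filterByExpr, 14776 genes kept of 23245 with a count), scaled by TMM and tested with edgeR 4.0.16 in R 4.3.3, siKIFC1 against control siRNA, with a biological coefficient of variation of 13.1%. CPM and lengths used TMM and GENCODE 44. Alternatives used DESeq2 1.42.0, limma 3.58.1 (voom), other scaling and filters, and libraries left out in turn. Figures used matplotlib 3.10.9. Exact tests were computed in Python 3.11.15 with numpy 2.4.6 and pandas 2.3.3, and their adjustment over neighbouring pairs used scipy 1.17.1. Floors and count ranges cover counting error only.

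Replicate numbers come from the labels. After removal of group means, libraries of the same number correlated over 11758 genes at 0.484, 0.414 and 0.491, and others at -0.457 to 0.0234, so the block was used as a paired alternative. Members and gene lists, written by hand, were chosen with earlier results of these data known. The rule for named genes took the members, *KIFC1*, every called gene of a list, the 2 highest and 2 lowest fold changes of each list among genes with a mean log2 CPM of at least 2, lists of 4 or fewer genes, and the 5 genes most correlated with *MYC* among those with a mean log2 CPM of at least 5. Other genes of the lists were named after their values were seen, and most genes of the longer lists are covered by counts and medians.

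The edgeR step was tested on simulated data for this comparison (14776 genes, 200 changed). At a log2 fold change of 1 it found 156 of the 200 with the right sign (78%) and 10 false ones, at 0.5 it found 41 (20.5%) and 7 false ones, and with nothing changed it called 0. The simulated counts were drawn independently, without the correlation of like replicate numbers or the replicate 3 length shift of the real libraries. These rates may therefore not hold for the real libraries.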

Additional observations from a re-analysis of the deposited data

How the results depend on the processing

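The number of genes called depended on the processing, and the call of *MXD1* depended on which libraries were kept. Against 49 higher and 56 lower, the calls were 121 and 144 without the filter on low counts, 125 and 145 with DESeq2's Wald test, and 402 and 452 with the replicate number as a block. Leaving out single libraries gave 9 to 194 higher and 15 to 274 lower, with the highest counts without siKIFC1 replicate 3 and, for both directions, the lowest without control siRNA replicate 3. *MXD1* was the only network gene called under any alternative that kept all libraries, and its log2 fold change stayed between -0.75 and -0.63 without single libraries while the call was lost in 5 of those 6 fits. Signs turned without single libraries for *MAX* (-0.033 to 0.15), *MXD3* (-0.19 to 0.18), *MXD4* (-0.16 to 0.094), *MGA* (-0.15 to 0.40), *EIF5A* (-0.18 to 0.040), *MEIOC* (-0.070 to 0.20), *MLXIP* (-0.12 to 0.038), *MLXIPL* (-0.11 to 0.33), *NBAS* (-0.16 to 0.060) and *RLF* (-0.23 to 0.092), none of which was called. List medians moved without single libraries to 0.035 to 0.15 for the network, -0.088 to -0.047 for MYC partners, -0.12 to 0.044 for germ-line genes, 0.014 to 0.082 for ribosome biogenesis and -0.086 to 0.060 for MYC-repressed genes. The ranges were -0.020 to 0.051 for SIN3 and NCOR, 0.047 to 0.16 for PRC1.6, -0.12 to 0.013 for MYC turnover, -0.0046 to 0.062 for metabolism, -0.021 to 0.085 for translation, -0.046 to 0.017 for the cell cycle, 0.056 to 0.11 for the transcripts beside the MYC genes, 0.028 to 0.33 for the MLX branch and 0.22 to 0.31 for the MondoA targets. Without the filter the germ-line median was -0.019 and the MYC-repressed median 0.057, and with at least 10 counts in every library the germ-line median was 0.077. In these the set of genes tested differs by construction, and for the other changes the cause was not tested. With the longest transcript and with the canonical transcript as gene length, levels in CPM per kilobase were 67.7 and 67.7 for *MYC*, 1.25 and 1.25 for *MYCL*, 12.6 and 19.7 for *MAX*, 7.47 and 16.0 for *MXD3*, 26.8 and 29.3 for *MXD4*, 8.07 and 8.07 for *MXI1*, 11.4 and 11.4 for *MNT*, and 4.32 and 5.16 for *MGA*, the canonical length being chosen after the data were seen. The *MYC* share over 6 libraries became 97.3% with either length and 97.7% in counts, and the *MYCN* share 0.896% and 0.631%. The block changed no call of a network gene, and the other calls that it changed are given beside their genes. It was not examined for the 5 genes most like *MYC*. Counts per library were low for *MYCN* (16 to 41), *MYCL* (50 to 95) and *CCND2* (3 to 27), and 7 of the 18 germ-line genes had too few to be tested.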
